A study of Drosophila melanogaster with 6 samples.

Results

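The retinal determination transcription factors are the regulators that commit cells of the fly to an eye fate and then drive the differentiation of photoreceptors. They were chosen by name as 9 rows of the deposited expression table, ey, toy, so, eya, dac, gl, Pph13, oc and onecut, out of 11836 genes in all. All 9 were found under exactly these symbols, and all 9 passed the filter of a mean of at least 1 FPKM (fragments mapped to a gene, scaled by its length and by the size of the library), as did 8465 genes of the table. Messenger RNA was measured by strand-specific, poly(A)-selected sequencing of adult Drosophila melanogaster heads in 3 libraries of Prp31_P18 flies, which were homozygous mutants of the splicing factor gene Prp31, and in 3 libraries of w flies, controls whose genotype is given as white. Each library was made from 50 pooled heads of flies aged 2 days, raised under regular light, and the series covers males and females without giving the sex of a library. Whether the Prp31_P18 line also carries a white mutation, and whether replicate libraries derive from separate cultures, is not stated. The p-values therefore reflect the spread between libraries, which may be technical. The study set out to use the mutant as a fly model of retinitis pigmentosa 11, a dominant degeneration of the human retina.

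In the developing eye disc the Pax6 proteins Twin of eyeless and Eyeless act near the top of the network and switch on sine oculis and eyes absent, whose products bind each other, and dachshund acts with them. Glass, Orthodenticle (the product of oc), Pph13 and Onecut act later, in cells that become photoreceptors. In the adult head these genes are not confined to the retina. Eyeless, twin of eyeless and dachshund are known from the Kenyon cells of the mushroom body, and onecut from neurons in general. A head library sums all these cells, and in such a bulk sample fewer cells of a type and less RNA per cell cannot be told apart.

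The libraries held eye, brain and glia together. The photoreceptor markers ninaE, chp, trp and norpA, the neuron marker elav and the glial marker repo were all detected in every library, and ninaE reached 11886 to 15585 FPKM in Prp31_P18 heads, against 9201 to 11582 FPKM in w heads. Prp31 itself had 13.5 to 14.2 FPKM in Prp31_P18 heads and 13.8 to 14.0 FPKM in w heads. What P18 alters in the transcript is not given, so this level is no check of the labels. The transcript of w was listed at 0.284 to 0.524 FPKM in Prp31_P18 heads and at 0.015 to 0.046 FPKM in w heads. Column totals lay between 370087 and 402452 FPKM in Prp31_P18 libraries and between 348791 and 386152 FPKM in w libraries. Read depth per library is unknown, so no counting error could be given. The transcripts of the yolk protein genes Yp1, Yp2 and Yp3, which the female fat body makes, took 4.48% to 11.3% of the column total in Prp31_P18 libraries, and 1.01% to 5.02% in w libraries. The highest share was that of Prp31_P18 replicate 3 among mutants and of w replicate 3 among controls. Leaving out w replicate 3 raised the genes called over the table to 838 higher and 1383 lower (9.9% and 16.3% of those tested), against 299 and 661 with all libraries, while leaving out any other library gave fewer calls.

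None of the 9 factors differed between Prp31_P18 and w heads past the test. The fit was limma on log2(FPKM + 1) with Benjamini-Hochberg adjustment over all 8465 genes, and 0 of 9 had an adjusted p under 0.05, where 11.3% of all genes tested were called (3.53% higher and 7.81% lower). Without adjustment the count at p under 0.05 was also 0 of 9 in this fit, where 27.3% of all genes passed. Under some alternatives to the fit it was 1 or 2 of 9, as given in the last section. The mutant and control libraries overlapped for all 9 factors, where 31.2% of all genes tested had groups that did not overlap. Their log2 fold changes lay between -0.17 and 0.17, with 3 above and 6 below 0, and a median of -0.05 beside a median of -0.07 for all genes tested.

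**Figure D1:**
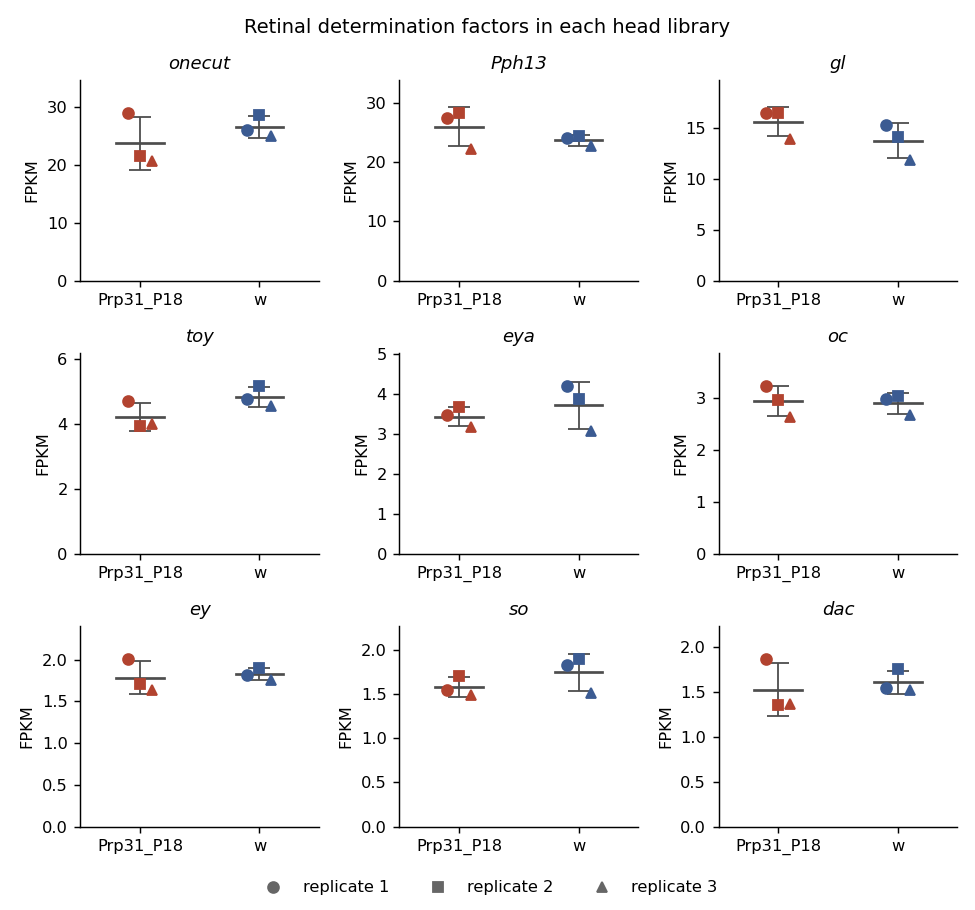
FPKM of each of the 9 factors in the 3 Prp31_P18 libraries (red, left) and the 3 w libraries (blue, right), with marker shapes for the replicate number, and the mean and SD as a line and bars. The 2 groups overlap in every panel, and replicate 3 is the lowest w library in all 9.

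The Pax6 pair came first in the network, and both genes were low in whole heads. The toy gene, which encodes Twin of eyeless (FBgn0019650, chromosome 4, 989725 to 1007922, plus strand, build BDGP6), had 4.69, 3.92 and 3.999 FPKM in Prp31_P18 replicates 1, 2 and 3, against 4.75, 5.16 and 4.56 FPKM in the w replicates. Of the Prp31_P18 libraries, replicates 2 and 3 lay below all controls and replicate 1 lay within their range. The means were 4.20 ± 0.423 FPKM in Prp31_P18 heads and 4.82 ± 0.305 FPKM in w heads (SD, n = 3 each). Limma put the log2 fold change at -0.16 ± 0.09 (standard error; adjusted p = 0.270), the lowest adjusted p of the 9 factors. The ey gene, which encodes Eyeless (FBgn0005558, chromosome 4, 697689 to 721173, plus strand), had 2.01, 1.71 and 1.64 FPKM in Prp31_P18 heads, against 1.82, 1.90 and 1.76 FPKM in w heads. Mutant libraries lay both above and below the controls, and the log2 fold change was -0.02 (standard error 0.09, adjusted p of limma 0.885).

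The next tier holds the partners So and Eya and the nuclear cofactor Dac. The so gene, which encodes a homeodomain protein that acts together with Eya (FBgn0003460, 2R, 7419350 to 7434872, plus strand), had 1.54, 1.70 and 1.49 FPKM in Prp31_P18 heads, against 1.83, 1.90 and 1.51 FPKM in w heads. The log2 fold change was -0.09 (standard error 0.09, adjusted p of limma 0.575), and replicate 3 was the lowest library of both groups. The eya gene, which encodes a transcriptional coactivator that is also a phosphatase (FBgn0000320, 2L, 6527447 to 6546976, minus strand), had 3.47, 3.67 and 3.18 FPKM in Prp31_P18 heads, against 4.20, 3.89 and 3.07 FPKM in w heads. All mutant libraries lay between w replicate 3 and the other controls, and the log2 fold change was -0.08 (standard error 0.11, adjusted p of limma 0.658). The dac gene (FBgn0005677, 2L, 16466512 to 16485998, minus strand) had 1.86, 1.35 and 1.36 FPKM in Prp31_P18 heads, against 1.54, 1.75 and 1.52 FPKM in w heads. Prp31_P18 replicate 1 was above all controls and the other mutant libraries below them, with a log2 fold change of -0.05 (standard error 0.11, adjusted p of limma 0.790).

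Among the factors of photoreceptor differentiation, gl and Pph13 had the largest positive fold changes of the 9. The gl gene, which encodes the zinc finger protein Glass (FBgn0004618, 3R, 18367927 to 18372738, minus strand), had 16.5, 16.5 and 14.0 FPKM in Prp31_P18 heads, against 15.3, 14.2 and 11.9 FPKM in w heads. The lowest mutant library lay within the control range and the others above it. The means were 15.6 ± 1.44 FPKM in Prp31_P18 heads and 13.8 ± 1.76 FPKM in w heads (SD, n = 3 each), with a log2 fold change of 0.17 (standard error 0.11, adjusted p of limma 0.346). Without w replicate 3 it was 0.08 (limma adjusted p = 0.590), and without w replicate 1 it was 0.25 (limma adjusted p = 0.337). Pph13, the gene of a paired-class homeodomain protein needed for rhabdomeres and for phototransduction genes (FBgn0023489, 2L, 577486 to 579549, plus strand), had 27.5, 28.3 and 22.3 FPKM in Prp31_P18 heads, against 24.2, 24.4 and 22.7 FPKM in w heads. Prp31_P18 replicate 3 was below all controls and replicates 1 and 2 were above them, with a log2 fold change of 0.12 (standard error 0.10, adjusted p of limma 0.474).

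The oc gene, whose product Orthodenticle acts on opsin genes in photoreceptors and is needed for the ocelli (FBgn0004102, X, 8630159 to 8650681, minus strand), had 3.24, 2.97 and 2.64 FPKM in Prp31_P18 heads, against 2.99, 3.06 and 2.68 FPKM in w heads. The 2 ranges nearly coincided, and the log2 fold change was 0.01 (standard error 0.09, adjusted p of limma 0.933). The onecut gene, which encodes a protein with a CUT domain and a homeodomain (FBgn0028996, chromosome 4, 598555 to 607649, minus strand), had 28.9, 21.5 and 20.6 FPKM in Prp31_P18 heads, against 26.0, 28.6 and 25.0 FPKM in w heads. Prp31_P18 replicate 1 was the highest library of all and the other mutant libraries were below every control. The log2 fold change was -0.17 (standard error 0.13, adjusted p of limma 0.433). It was -0.32 without Prp31_P18 replicate 1 (limma adjusted p = 0.0874) and -0.08 without Prp31_P18 replicate 3 (limma adjusted p = 0.783).

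**Figure D2:**
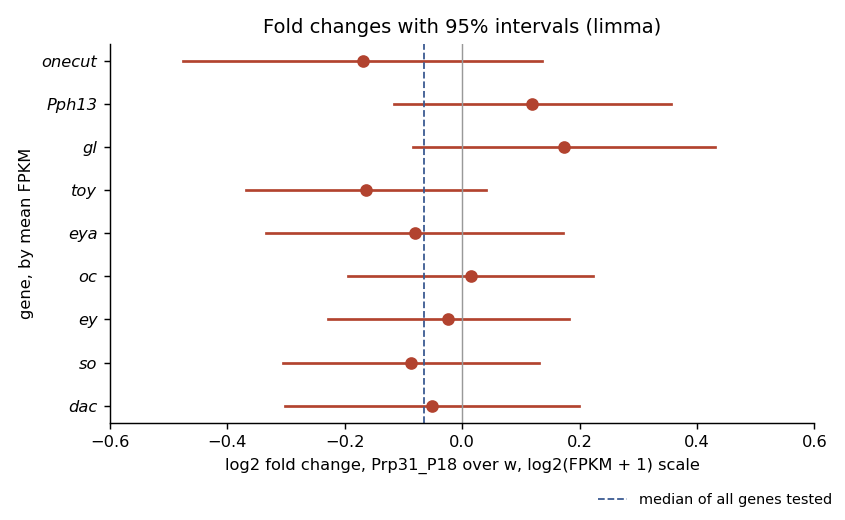
Log2 fold change of each factor, Prp31_P18 over w, on the log2(FPKM + 1) scale, as a point with its 95% interval from limma, ordered from the highest mean FPKM at the top. Every interval crosses 0, and together they span -0.48 to 0.43; the dashed line is the median of all 8465 genes tested, -0.07.

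A p that misses the threshold does not show equal levels, so the interval of each factor alone is given for this fit. On the log2(FPKM + 1) scale the 95% intervals of the 9 factors together ran from -0.48, the lower end for onecut, to 0.43, the upper end for gl. Adding 1 FPKM understates changes of the low genes. With 0.1 FPKM added in its place the intervals together ran from -0.49 to 0.46, that is from 0.711 to 1.37 times the control level. The interval of toy ran from -0.37 to 0.04 and that of ey from -0.23 to 0.18 with 1 FPKM added. Other fits gave intervals beyond this span. That of onecut ran from -0.56 to 0.19 without w replicate 1. That of gl ran from 0.22 to 0.64 with a covariate for yolk protein transcripts, and so lay above 0. Without Prp31_P18 replicate 1 the intervals of onecut (-0.53 to -0.10) and toy (-0.43 to -0.03) lay below 0. Without Prp31_P18 replicate 3 that of Pph13 (0.03 to 0.41) lay above 0.

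With 1 library left out at a time, 0 of 9 factors were called each time, but the fold changes moved. The log2 fold change of toy lay between -0.23 without Prp31_P18 replicate 1 and -0.12 without w replicate 2, and that of ey between -0.08 without Prp31_P18 replicate 1 and 0.01 without Prp31_P18 replicate 3. That of so lay between -0.15 without w replicate 3 and -0.05 without w replicate 2, and that of eya between -0.18 without w replicate 3 and -0.01 without w replicate 1. For dac the lowest was -0.14, without Prp31_P18 replicate 1. Pph13 had 0.06 without Prp31_P18 replicate 2 and 0.22 without Prp31_P18 replicate 3, and oc had -0.04 without Prp31_P18 replicate 1 and 0.07 without Prp31_P18 replicate 3. The sign of toy, so, eya, dac, onecut, gl and Pph13 was kept whichever library was left out, and that of ey and oc was not.

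**Figure D3:**
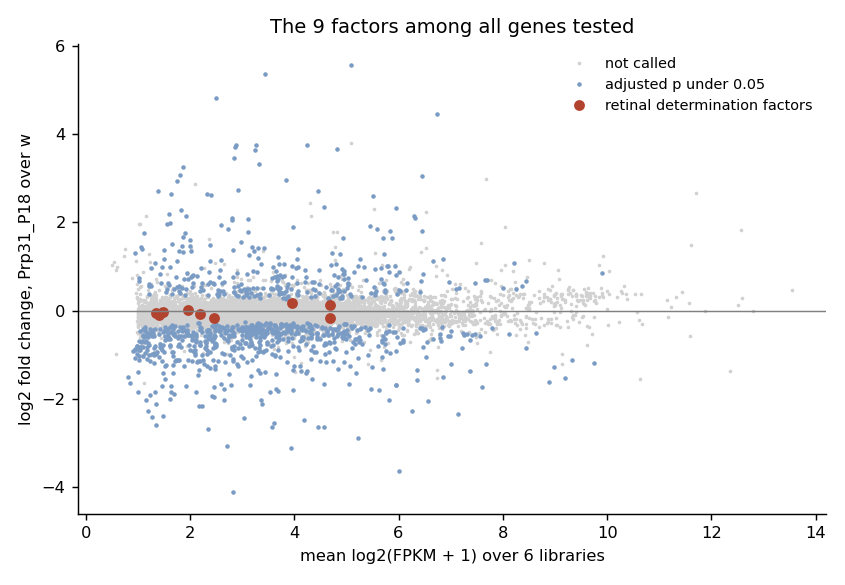
Log2 fold change (Prp31_P18 over w) against the mean log2(FPKM + 1) over 6 libraries for the 8465 genes tested, with the genes of adjusted p under 0.05 in blue, all others in grey and the 9 factors in red. The factors lie between -0.17 and 0.17 on the vertical axis, and none is among the called genes.

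FPKM are divided by gene length, so the levels of the factors can be set beside each other. Over the 6 libraries onecut averaged 25.1 FPKM and Pph13 24.9 FPKM, and the order of this pair changed between libraries, with onecut higher in 4 of 6. They were followed by gl at 14.7 FPKM, below both in every library. The genes toy at 4.51, eya at 3.58 and oc at 2.93 FPKM kept that order in 6 of 6 libraries, although the ranges of neighbours overlapped. The genes ey at 1.805, so at 1.66 and dac at 1.56 FPKM were the lowest, with overlapping ranges, and ey exceeded so in 5 of 6 libraries and so exceeded dac in 4 of 6. The means of onecut, Pph13 and gl exceeded those of 78.0%, 77.8% and 63.1% of all genes tested, those of toy, eya and oc 24.7%, 19.2% and 15.0%, and those of ey, so and dac 7.51%, 6.45% and 5.56%. Of the factors that act late in photoreceptor differentiation, oc was thus the low one, in the range of the early selector genes.

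The annotation places the 9 genes on 5 chromosomes or arms, counting 2L, 2R, 3R, 4 and X, and not on 3L, which carries Prp31. The gl gene lies on 3R, the other arm of the same chromosome as Prp31. The genes onecut, ey and toy lie on the small chromosome 4. Of its 74 genes tested 0 were higher and 5 lower, where 3.53% of all genes tested were higher and 7.81% lower. The share called was 6.76% on chromosome 4 and 11.3% over all genes. It was highest on the arms of chromosome 3, with 13.3% on 3L and 14.3% on 3R. On 2L, 2R and X it was 9.30%, 11.1% and 7.35%, and the cause of these differences was not tested. The median log2 fold change was -0.14 on chromosome 4, beside -0.07 for all genes tested. Gene structure differed widely: Pph13 has 1 annotated transcript with 2 introns, and dac has 6 with 10 or 11 introns. The 3 genes with the most introns, dac, toy with 8 and ey with 7 or 8, had log2 fold changes of -0.05, -0.16 and -0.02. The so gene, with 6 introns, had -0.09. Of the genes with at most 4 introns onecut had -0.17, eya -0.08, oc 0.01, Pph13 0.12 and gl 0.17. The table gives 1 value per gene, so it does not show how these transcripts were spliced. None of the 9 shared exon bases with another gene of the table. How reads that fit several places were counted is not given in the sources used here.

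Most factors ranked the w libraries alike, and they ranked the Prp31_P18 libraries less alike. Replicate 3 was the lowest of the w libraries for 9 of 9 factors, where it was the lowest for 43.8% of all genes tested. The count stayed at 9 of 9 after median-ratio rescaling of the libraries, where the share of all genes was 42.3%. Replicate 3 was the lowest of the Prp31_P18 libraries for 7 of 9 factors, beside 51.6% of all genes, but for 4 of 9 after rescaling, beside 27.2%. Prp31_P18 replicate 1 was the highest mutant library for 6 of 9 factors, beside 45.2% of all genes, and for 5 of 9 after rescaling, beside 31.6%. These ranks were looked at after the values had been seen, and the 3 yolk protein genes were also highest in replicate 3 of each group; their part in the ranks was not tested.

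**Figure D4:**
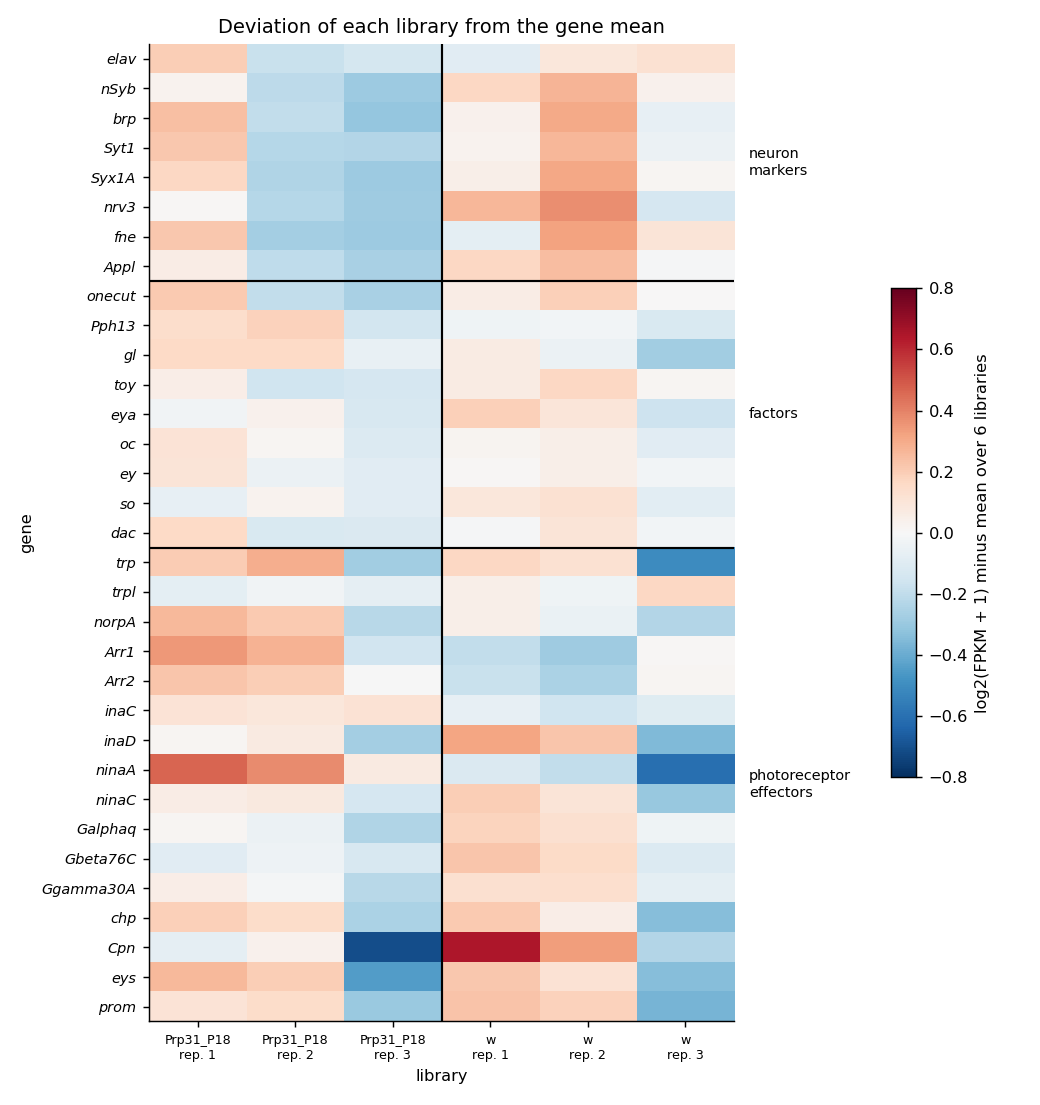
Deviation of each library from the gene's mean over 6 libraries, in log2(FPKM + 1), for 8 neuron markers, the 9 factors and 16 photoreceptor effector genes (rows), with Prp31_P18 libraries left and w libraries right. The row of onecut resembles those of the neuron markers Syt1 and brp, high in Prp31_P18 replicate 1 and w replicate 2, while gl and Pph13 are high in Prp31_P18 replicates 1 and 2 and low in replicate 3 of both groups, as is norpA.

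The most abundant factors, onecut and Pph13, were most like different genes. Among 97 other tested genes of the lists used here, those most like onecut over the 6 libraries were the synaptic genes Syt1 (Pearson r = 0.98, Spearman rho = 0.94), brp (r = 0.98, rho = 0.94) and Syx1A (r = 0.97, rho = 0.94). Those most like Pph13 were norpA, the phospholipase C of phototransduction (r = 0.95, rho = 0.83), the ocellar opsin gene Rh2 (r = 0.93, rho = 0.94) and gl (r = 0.83, rho = 0.83). Without the 2 libraries farthest from the median of the factor, r was 0.86 to 0.98 for the first 3 genes, and 0.90, 0.68 and 0.58 for norpA, Rh2 and gl. All genes of a library share its depth and scaling, and each of these genes was picked as one of the 3 most alike, so no p is given. All 8 neuron markers were highest among the mutant libraries in Prp31_P18 replicate 1, as onecut was, and so were all 9 Kenyon cell markers.

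Ratios of 2 factors within a library do not depend on how the library was scaled, and they were examined for all 36 pairs after the values had been seen. In 10 pairs the Prp31_P18 and w libraries did not overlap, 27.8% of the pairs, where 34.8% of all pairs of genes tested did not. The pairs share genes. The count was 20 of 36 without Prp31_P18 replicate 1, where 46.2% of all pairs of genes did not overlap. It was 18 of 36 without w replicate 1, where 38.6% did not. Without Prp31_P18 replicate 2 or 3 it was 10 and 13 of 36, beside 43.1% and 41.3% of all pairs. Without w replicate 2 or 3 it was 10 and 15 of 36, beside 39.8% and 60.8%. The share of factor pairs was thus above that of all pairs only without Prp31_P18 replicate 1 or w replicate 1. The ratio of gl to so was 10.7, 9.65 and 9.37 in Prp31_P18 heads, against 8.37, 7.47 and 7.86 in w heads, a log2 difference of 0.32. The ratio of gl to toy was 3.51, 4.20 and 3.49 in Prp31_P18 heads, against 3.23, 2.74 and 2.60 in w heads, a log2 difference of 0.39. The ratio of the Pax6 pair, toy to ey, was 2.34, 2.30 and 2.44 in Prp31_P18 heads, against 2.61, 2.71 and 2.59 in w heads, a log2 difference of -0.16. Each of these gave p = 0.1 in a two-sided exact permutation test, the smallest that 3 against 3 libraries allow, so no pair could pass at 0.05.

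**Figure D5:**
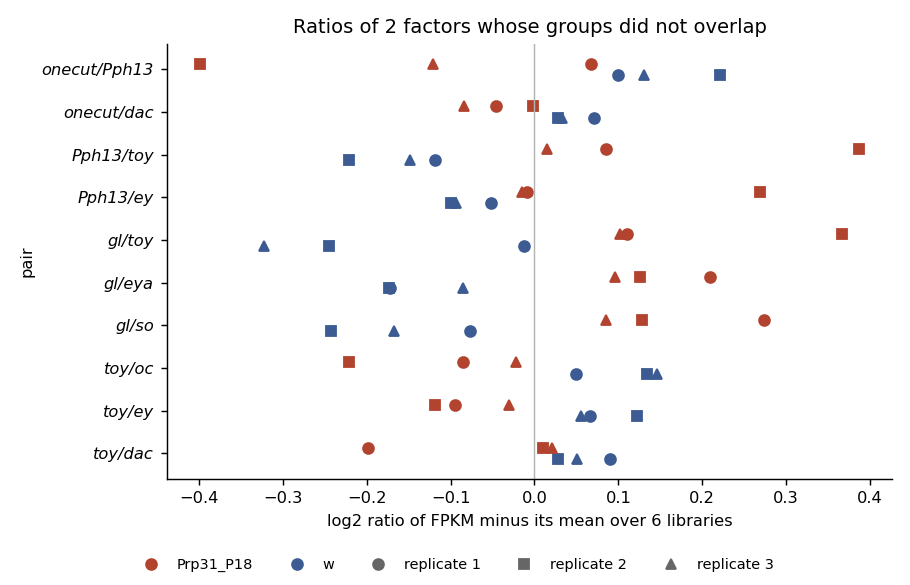
Log2 ratio of FPKM of 2 factors in each library, minus its mean over 6 libraries, for the 10 of 36 pairs whose groups did not overlap, with Prp31_P18 libraries (red) above w libraries (blue) in each row and marker shapes for the replicate number. Ratios with gl or Pph13 in the numerator lie farther right in Prp31_P18 heads than in w heads, and ratios with toy or onecut in the numerator lie farther left.

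Rescaling by the median ratio moved gl and Pph13 apart between groups without bringing a call. On that scale gl had 15.0 to 16.7 in Prp31_P18 heads and 11.6 to 14.8 in w heads, and Pph13 had 24.0 to 28.7 in Prp31_P18 heads and 22.2 to 23.8 in w heads, so 2 of 9 factors did not overlap, where 31.1% of all genes did not. Limma gave log2 fold changes of 0.25 and 0.19 there, with adjusted p of 0.168 and 0.192. A call appeared under 2 of the 17 alternatives to the fit. With a covariate for yolk protein transcripts gl was higher in Prp31_P18 heads (log2 fold change 0.43, limma adjusted p = 0.0398). With library weights toy was lower (-0.20, limma adjusted p = 0.0440). Over the table, the covariate lowered the counts of genes called in both directions and library weights raised them, with the counts in the last section. With the yolk protein covariate 7 of 9 factors had fold changes above 0, against 3 of 9 without it. Other lists moved as well. Of 16 photoreceptor effector genes 15 were above 0 with it and 9 without it, and of 7 fat body markers 4 and 7. The fat body markers include Yp1, Yp2 and Yp3, from which the covariate was made, so their count was partly fixed in advance. Yolk protein transcripts were themselves higher on average in Prp31_P18 libraries, so the covariate and the genotype cannot be fully separated.

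The genes that work beside the 9 factors gave few calls. Of 12 other early eye regulators 8 were tested, and limma called 0 in either direction, with 0 at an unadjusted p under 0.05 as well, with a median log2 fold change of -0.18. The most abundant of them, exd, a homeodomain partner of Hox proteins, had 36.0 ± 1.81 FPKM in Prp31_P18 heads and 40.5 ± 2.04 FPKM in w heads (SD, n = 3 each), and danr had 3.94 ± 0.919 FPKM in Prp31_P18 heads and 4.59 ± 0.345 FPKM in w heads. The proneural gene ato, which founds the photoreceptor clusters of the disc, did not reach the filter, with 0.138 to 0.299 FPKM in Prp31_P18 heads and 0.108 to 0.254 FPKM in w heads. The relatives of the factors were also not called. Optix, a homeobox gene of the same family as so, had 3.39 ± 0.279 FPKM in Prp31_P18 heads and 3.39 ± 0.345 FPKM in w heads, and eyg, a Pax gene like ey, had 1.94 ± 0.433 FPKM in Prp31_P18 heads and 2.13 ± 0.375 FPKM in w heads. Besides ey and toy, 3 of 8 Pax genes were tested, and besides so, 1 of 2 genes of its family, with 0 calls by limma in each and 0 at an unadjusted p under 0.05.

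Of 24 regulators of photoreceptor and cone cell fate 13 were tested. Of these 0 were higher and 1 lower, where 3.53% of all genes tested were higher and 7.81% lower. The one that fell was melt, which encodes a PH domain protein that sets the subtype of R8 photoreceptors, with 1.15, 1.55 and 1.31 FPKM in Prp31_P18 heads, against 3.08, 2.70 and 3.32 FPKM in w heads. Its groups were well apart (log2 fold change -0.79 ± 0.10 by limma, SE, adjusted p = 0.00352), and the call was kept in all 16 alternatives in which it was tested.

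Downstream of the factors, 2 of 6 opsin genes were called higher and 0 lower, where 3.53% of all genes tested were higher and 7.81% lower. Orthodenticle and Pph13 are known regulators of opsin genes, and the opsin values are set here beside theirs. Rh6, the opsin of a subtype of R8 cells, had 548, 561 and 402 FPKM in Prp31_P18 heads and 21.6, 22.1 and 21.2 FPKM in w heads. Rh4, an opsin of R7 cells, had 187, 198 and 137 FPKM in Prp31_P18 heads and 76.5, 73.8 and 77.9 FPKM in w heads. Every mutant library lay above every control for Rh6 and Rh4, as for ninaE, and below every control for Rh5, so 4 of 6 opsin genes had groups that did not overlap, where 31.2% of all genes tested did not. The log2 fold changes were 4.46 and 1.17 (limma, adjusted p = 3.23e-06 and 0.00288), while oc and Pph13 had 0.01 and 0.12. ninaE, Rh2, Rh3 and Rh5 were not called, with log2 fold changes of 0.48, 0.04, -0.14 and -0.44. Without w replicate 3 ninaE was called higher (0.57, limma adjusted p = 0.0246) and Rh5 lower (-0.42, limma adjusted p = 0.0447), and with quantile normalization ninaE had 0.05 (limma adjusted p = 0.946). Of 16 photoreceptor effector genes 0 were called by limma, where 11.3% of all genes tested were, and their median log2 fold change was 0.00. At an unadjusted p under 0.05 limma found 1 higher, where 27.3% of all genes passed in either direction. Without w replicate 3, where 9.9% of all genes were higher and 16.3% lower, the count was 1 higher and 2 lower of these effector genes. The most abundant were the arrestin genes Arr2, with 6825 ± 572 FPKM in Prp31_P18 heads and 5634 ± 551 FPKM in w heads, and Arr1, with 2877 ± 508 FPKM in Prp31_P18 heads and 2296 ± 243 FPKM in w heads.

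Markers of the other cells of the head were counted in the same fit. None of 8 Kenyon cell markers tested, 8 neuron markers and 5 glia markers was called, where 11.3% of all genes tested were. An unadjusted p under 0.05 with a negative fold change was found for 2, 2 and 1, where 27.3% of all genes passed in either direction. All 16 markers of Kenyon cells and neurons had fold changes below 0, as had 5422 of all 8465 genes tested. With the yolk protein covariate 2 of 8 Kenyon cell and 2 of 8 neuron markers were above 0, and with quantile normalization 3 and 0. The summed level of the neuron markers was 241 to 309 FPKM in Prp31_P18 libraries and 288 to 364 FPKM in w libraries, and that of the Kenyon cell markers 48.0 to 59.6 FPKM in Prp31_P18 libraries and 57.3 to 67.5 FPKM in w libraries. The 2 most abundant neuron markers, nSyb and nrv3, had log2 fold changes of -0.32 and -0.34, the Kenyon cell markers Pka-C1 and trio had -0.25 and -0.22, and the glia markers Gs2 and nrv2 had -0.20 and -0.33, or 0.0864 and 0.0829 with the yolk protein covariate. The glia marker repo had 0.04. Without w replicate 3, where 16.3% of all genes were called lower, limma called 2 Kenyon cell, 2 neuron and 4 glia markers lower. Among these were Pka-C1, nSyb, nrv3, Gs2 and nrv2. Of the factors, onecut had a log2 fold change of -0.17, toy -0.16, dac -0.05 and ey -0.02, and the part of these markers in the values of the factors was not tested.

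Of 6 tested markers of optic lobe neurons, bsh rose, a homeobox gene of lamina and medulla neurons, with 3.27, 2.30 and 2.96 FPKM in Prp31_P18 heads, against 1.77, 1.92 and 1.53 FPKM in w heads (log2 fold change 0.48 ± 0.12 by limma, SE, adjusted p = 0.0392). The other 5 had log2 fold changes of -0.26 to 0.28, with 4 of them below 0, and the median of the 6 was -0.09. The call of bsh was lost under 7 of 16 alternatives, among them those without Prp31_P18 replicate 1 or 3 or w replicate 1 or 2 (limma adjusted p 0.0753 to 0.135). Of 4 lens and pigment cell markers the corneal crystallin gene Crys, listed as Cry, was lower (log2 fold change -2.04, limma adjusted p = 0.00127), while retinin, ct and Pdh had -0.57, -0.07 and 0.08 and were not called. Of 7 fat body markers to was higher (0.81, limma adjusted p = 0.0149), of 6 muscle markers Act88F and wupA were lower (-1.23 and -0.75, limma adjusted p = 0.00392 and 0.0466), and of 2 haemocyte markers Hml was lower (-0.42, limma adjusted p = 0.0227). Over all genes tested 3.53% were called higher and 7.81% lower. Without w replicate 3, 7 of 7 fat body markers were called higher and 5 of 6 muscle markers lower. In that fit 9.9% of all genes were higher and 16.3% lower. The call of wupA was lost under 12 of 17 alternatives, among them those without any 1 library other than w replicate 3 (limma adjusted p 0.0704 to 0.156). The call of Hml was lost without Prp31_P18 replicate 2 or 3 or w replicate 1 (0.0736 to 0.0840), and that of to without Prp31_P18 replicate 1 or w replicate 1 (0.0615 and 0.0563).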

How the data were processed

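The authors deposited FPKM per gene and library, with replicates not pooled. The processing notes of the submitters name CASAVA 1.8, STAR 2.5.2b and the build BDGP6. Which program gave FPKM, with which annotation release and strand setting, is not given in the sources used here. Columns were matched to samples by title. The fit used limma 3.58.1 (R 4.3.3) with a variance trend on log2(FPKM + 1), Prp31_P18 against w, for the 8465 genes whose mean over 6 libraries was 1 FPKM or more. P-values were adjusted over these genes after Benjamini and Hochberg, with a threshold of 0.05. FPKM are not counts, so no count model was run; the fit was tested on simulated data.

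Gene positions are those of Ensembl release 115 of the same assembly name. The members and the 14 other lists were chosen with earlier results of these data known. Of 126 listed symbols 124 were matched, 2 of them by gene ID only. Named were all 9 factors and 6 opsins, at most 4 called genes of each list, largest changes first (the 2 most abundant if 0 were called), and the 3 genes most like the 2 most abundant factors; ato was named after its values were seen, as were the markers of the tissue check. A planned search of promoter motifs was not run, as no sequences were used here. Replicate numbers were given no pairing, as the labels give them no meaning. Same-numbered libraries of both groups deviated together with r = -0.01, 0.21 and 0.32. For differently numbered libraries r ran from -0.31 to 0.31, so these values do not settle whether the numbers pair libraries.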

Additional observations from a re-analysis of the deposited data

How the results depend on the processing

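The count of factors called was 0 higher and 0 lower. It was 1 higher with the yolk protein covariate and 1 lower with library weights. Under the other 15 alternatives it was 0, each library left out in turn included. At an unadjusted p under 0.05 limma counted 2 factors with the yolk protein covariate, with library weights or without Prp31_P18 replicate 1. It counted 1 with median-ratio scaling, with the replicate number as a block or without Prp31_P18 replicate 3, and 0 otherwise. Genes called over the table were 299 higher and 661 lower, with 181 and 310 under the yolk protein covariate, 1128 and 2170 with library weights, 417 lower with a filter of 5 FPKM, which tests fewer genes, and 144 to 838 higher and 268 to 1383 lower without 1 library. With median-ratio scaling the split was 360 and 454. The other listed genes called were 4 higher and 5 lower, with 12 and 30 under library weights, 2 lower with a filter of 5 FPKM, and 2 to 13 and 3 to 22 without 1 library. With the replicate number as a block they were 8 and 9, and 0 factors were called. The cause of these shifts was not tested. Of the values of single named genes under an alternative, 505 kept their direction and their side of the threshold, 24 lost a call, 17 gained one and 20 changed sign.

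Some values changed sign. Under the yolk protein covariate ey was 0.0395, so 0.0583, eya 0.159, dac 0.0220, eyg 0.222, Rh3 0.0825, nrv2 0.0829 and Gs2 0.0864; nrv2 and Gs2 had -0.33 and -0.20 without it. With quantile normalization ey was 0.0714, so 0.0032 and dac 0.0458, with median-ratio scaling ey was 0.0246, and with library weights oc was -0.0126 and Optix -0.0252. Without 1 library ey ranged from -0.0807 to 0.0140, oc from -0.0376 to 0.0716, eyg from -0.199 to 0.0207 and Optix from -0.0617 to 0.0510. Without 1 library 10 to 20 of 36 pairs of factors had ratios that did not overlap, and 38.6% to 60.8% of all pairs of genes did not overlap then. The counts were 20 without Prp31_P18 replicate 1 and 18 without w replicate 1. Without any other library the share of factor pairs was below that of all pairs. The cause was not tested. These ratio counts, the counts for single lists and the median-ratio count of factors that did not overlap were added after seeing the data. With a filter of 5 FPKM only onecut, Pph13 and gl were tested. Depth is unknown, so the limits of the low factors could not be separated from counting error.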
